A study of Mus musculus with 2 samples.

Results

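The genes described here encode the zinc metalloproteinases that cut extracellular matrix and cell surface proteins, and their inhibitors. They were taken as every gene whose symbol is Mmp, Timp, Adam or Adamts followed directly by a number, from probe sets that the platform annotation gives to that gene alone. The rule found 65 genes on 116 probe sets, of 18193 genes named on the array, and it used no measured value. They comprised 18 matrix metalloproteinases (MMPs), 4 tissue inhibitors of metalloproteinases (TIMPs), 28 ADAMs (a disintegrin and metalloproteinase) and 15 ADAMTSs (ADAMs with thrombospondin motifs).

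RNA of whole lungs at E15.5, the embryonic day, was compared between TAZ-deficient mice and their wild type littermates on an Affymetrix one-colour array. TAZ, the product of Wwtr1, is a transcriptional coactivator that is restrained by the Hippo kinases and binds DNA through TEAD factors. Each group was 1 pool of 4 RNA samples on 1 array, so no difference below has a replicate or a test, and having 1 array per group limits all precision. The strain and the way in which the deficiency was made were not known here.

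MMPs and ADAMTSs are secreted or anchored enzymes that cleave collagens, proteoglycans and other matrix proteins, and most are made as inactive precursors. ADAMs sit in the plasma membrane, where several of them shed growth factors, cytokines and Notch receptors. TIMPs bind the active site of these enzymes and block it. At this stage the lung is a branching epithelial tree in a loose mesenchyme, and remodelling of the matrix around the growing tips is a known part of branching.

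Signals are given in the deposited linear units, which had been scaled on each array to a trimmed mean of 100.001. The median signal was 15.1 on the TAZ-deficient array and 15.2 on the wild type array, and 15.2 was used as a floor for low signals. A gene was called measured when its probe set with the highest mean signal passed the floor on at least 1 array, and a ratio against a signal at or below the floor is a lower bound. Wwtr1 itself read 11.3 in TAZ-deficient lung and 791.2 in wild type lung, at least 52.1-fold lower, so the arrays followed their labels. The tissue label was borne out by the 6 epithelial markers on the list, all above the floor on both arrays, among them the surfactant gene Sftpc with 4121.5 in TAZ-deficient and 4142.5 in wild type lung. The spread between probe sets of one gene is the only error these data hold. Over 5637 genes with 2 or more probe sets passing the floor it was an SD of 0.20 in log2 ratio, with 0.12 for the 2330 genes whose brightest 2 probe sets were above 106.3, the 75th percentile, on both arrays and 0.24 for the other 3307.

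Some members had signals above the floor in the fetal lung and others did not, and the members in a block of neighbouring MMP genes were all below it. In the RefSeq order of protein-coding genes, 10 MMP genes follow one another on chromosome 9 with no other gene between them, and 9 of these were members. They are Mmp13, Mmp12, Mmp1b, Mmp3, Mmp1a, Mmp10, Mmp8, Mmp20 and Mmp7, which include interstitial collagenases, stromelysins 1 and 2 (Mmp3 and Mmp10), macrophage elastase (Mmp12), matrilysin (Mmp7) and the enamel protease Mmp20. Of these 9 genes, 0 were above the floor on either array, against 66.1% of all genes on the array, the highest signal in the block being 9.3 in TAZ-deficient and 8.6 in wild type lung, both of Mmp8. Of the 9 MMP members outside the block, 8 were above it.

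The bases before the annotated start of both kinds of MMP gene are shown because the block shares short motifs there that the rule did not use. The sequences are from RefSeq on GRCm38.p6, 250 bases before the start of each gene, 5′ to 3′ on the strand of the gene. Capitals mark AP-1 sites (TGANTCA, bound by Fos and Jun) and TATA boxes (TATAAA) in Mmp3 and Mmp13, which were below the floor, and GC boxes (GGGCGG, bound by Sp1) in Mmp14 and Timp2, which were above it.
Mmp3, chr9:7445572-7445821, plus strand: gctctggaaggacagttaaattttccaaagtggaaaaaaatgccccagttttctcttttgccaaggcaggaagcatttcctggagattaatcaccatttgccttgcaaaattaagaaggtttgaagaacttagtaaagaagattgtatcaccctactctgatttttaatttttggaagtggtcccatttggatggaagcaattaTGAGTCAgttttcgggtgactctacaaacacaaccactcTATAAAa
Mmp13, chr9:7272264-7272513, plus strand: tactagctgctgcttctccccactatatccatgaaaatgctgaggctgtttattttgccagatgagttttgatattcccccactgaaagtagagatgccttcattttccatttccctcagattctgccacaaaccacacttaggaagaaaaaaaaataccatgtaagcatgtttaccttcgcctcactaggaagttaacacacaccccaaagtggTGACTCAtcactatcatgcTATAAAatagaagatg
Mmp14, chr14:54431348-54431597, plus strand: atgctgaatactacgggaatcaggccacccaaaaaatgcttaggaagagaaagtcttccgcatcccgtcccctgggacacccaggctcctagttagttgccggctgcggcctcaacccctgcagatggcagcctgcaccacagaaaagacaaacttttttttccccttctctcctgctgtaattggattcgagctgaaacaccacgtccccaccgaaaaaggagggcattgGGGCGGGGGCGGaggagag
Timp2, chr11:118355412-118355661, minus strand: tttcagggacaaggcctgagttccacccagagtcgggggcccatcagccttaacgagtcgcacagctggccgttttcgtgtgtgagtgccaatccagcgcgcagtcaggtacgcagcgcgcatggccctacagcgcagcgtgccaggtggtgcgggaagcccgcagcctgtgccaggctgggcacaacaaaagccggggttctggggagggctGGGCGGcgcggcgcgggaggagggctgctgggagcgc

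In Mmp3 the AP-1 letters begin 46 bases before the start and the TATA box 7 bases before it. In Mmp13 they begin 35 and 16 bases before it. In the RefSeq table of windows running from 250 bases before to 50 bases after a start, searched on both strands, the 9 genes of the block had 11 windows. A TATA box was in 81.8% of these windows and an AP-1 site in 72.7%, against 13.6% and 7.81% of all 32851 windows in the table. Both motifs stood in 1 window in 8 of the 9 genes, and 1.54% of all windows held both. The exception was Mmp8, which had no AP-1 site and the letters TATAAA only on the strand opposite to the gene. That match is counted among the TATA boxes above. The GC box was found in 0 of the 11 windows, against 35.7% of all. Genes of the block are related copies, so that their shared letters are not independent observations.

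The 4 TIMP genes had 4 windows, of which 3 held a GC box and 0 a TATA box or an AP-1 site. The letters GGAATG, the core of the site bound by TEAD factors, were in the window of Timp1 alone among the TIMPs, in 0 windows of the MMP block and in 14.7% of all windows. The window of Mmp14 held GC boxes, which begin 19 and 13 bases before its start, and no GGAATG. Of the MMP members outside the block, 4 had an entry, with a GC box in 4 of their 5 windows, against 35.7% of all. Among these was Mmp24, which was below the floor. Adam8, also below it, had a GC box too, while Timp4 and Adamts12, above it on at least 1 array, had none. The motifs marked above thus did not follow the floor in every member. Of all 65 members, 37 had an entry in the table, which is 56.9%, too few for a comparison of promoters over the whole family. A match is a description of letters and shows no binding.

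**Figure D1:**
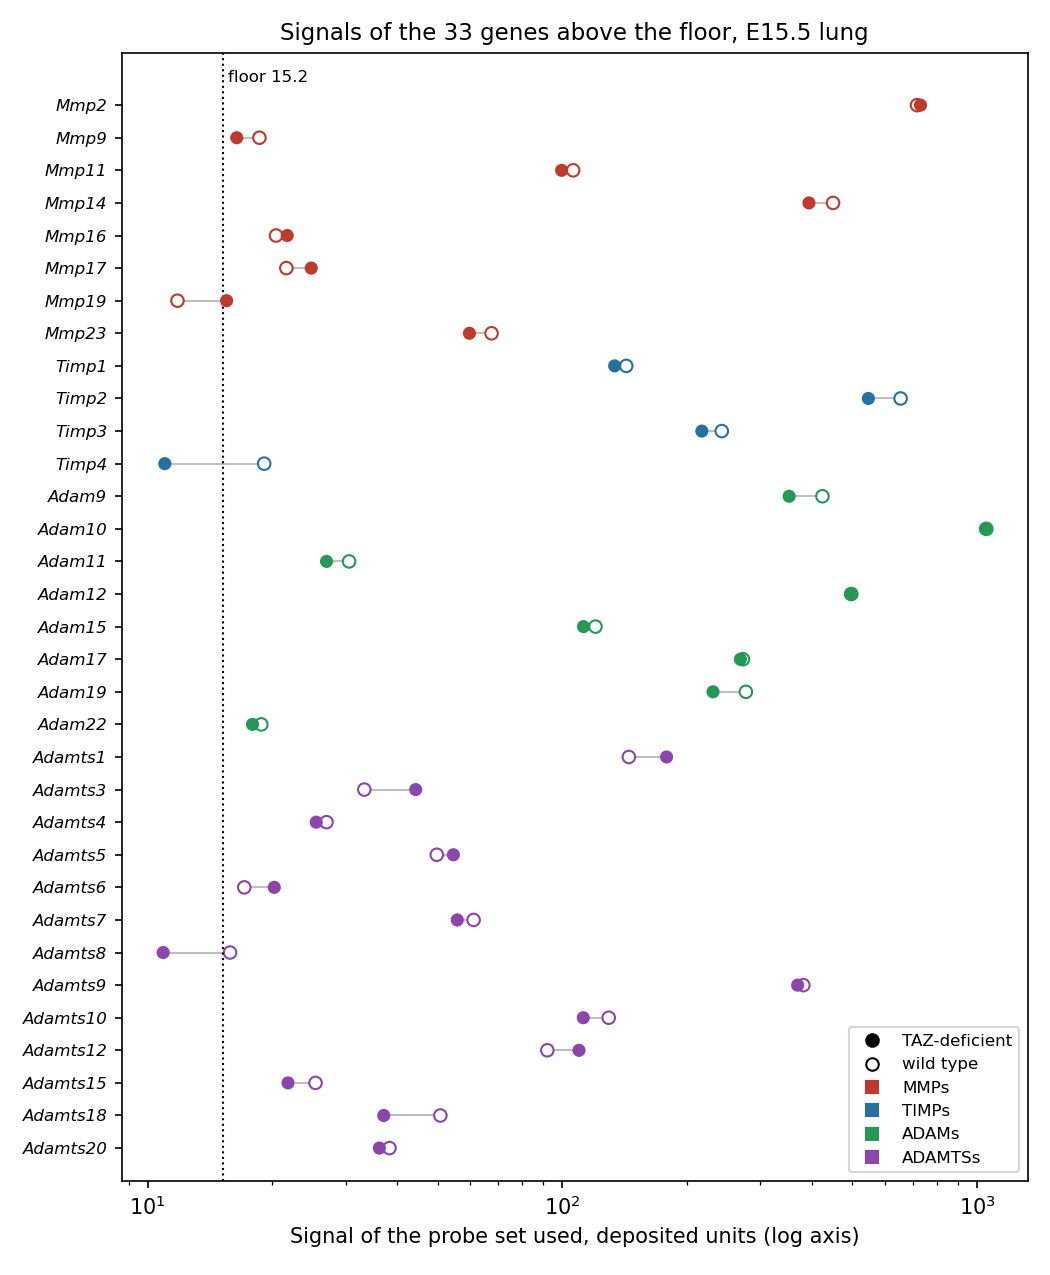
Signals in TAZ-deficient lung (filled) and wild type lung (open) for the 33 measured genes, each by 1 probe set, on a log axis in deposited units, with the floor of 15.2 as a dotted line. Each group is 1 array, and levels of different genes come from different probes and cannot be compared with each other. The filled and open points of most genes lie close together, the longest lines belonging to dim genes such as Timp4 and Adamts8.

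Of the 65 members, 33 were measured, which is 50.8%, against 66.1% of all genes on the array. The measured genes were 8 of 18 MMPs, 4 of 4 TIMPs, 8 of 28 ADAMs and 13 of 15 ADAMTSs. Of 16 ADAMs known mostly from the male reproductive tract or belonging to no other group (Adam1a, Adam1b, Adam2, Adam3, Adam4, Adam5, Adam6a, Adam6b, Adam7, Adam18, Adam21, Adam24, Adam25, Adam26a, Adam32 and Adam34), 0 were above the floor. Of 6 testis markers on the list, 1 was above it, Prm2, a protamine, with 16.0 in TAZ-deficient and 15.1 in wild type lung. The other members below the floor on both arrays were Adam8, Adam23, Adam28, Adam33, Adamts16, Adamts19 and the membrane-type protease Mmp24. Over the 32 genes not measured, signals ran from 0.2 to 14.7 in TAZ-deficient and from 0.1 to 14.9 in wild type lung, and no ratio is given for them.

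Neutrophils and macrophages are known sources of Mmp8, Mmp9, Mmp12 and Adam8. Mmp9 was the only one of these above the floor, with 16.4 in TAZ-deficient and 18.6 in wild type lung by 1 of its 2 probe sets. The 6 macrophage markers on the list were above the floor, their summed signal being 757.1 in TAZ-deficient and 870.1 in wild type lung. Their log2 ratios were -0.37 (C1qa), -0.45 (C1qb), -0.39 (C1qc) and -0.16 (Cd68), but -0.01 for Csf1r and -0.02 for Mrc1. Of 7 neutrophil markers 3 were above it, with a summed signal over the list of 226.8 in TAZ-deficient and 178.1 in wild type lung. That sum followed S100a8, with 133.4 in TAZ-deficient and 86.4 in wild type lung. S100a9 read 30.0 and 26.2 in that order, and Ngp went the other way, with 28.2 and 33.3. The neutrophil list thus went both ways. All 6 macrophage ratios were below 0, beside 52.9% of all measured genes. Their median was -0.26, but Csf1r and Mrc1 were close to wild type. In a whole organ, fewer cells of a type and less RNA per cell cannot be told apart.

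With signals below 15.2 set to the floor, no measured member reached a 1.5-fold difference between the pools. Of the 33 measured members, 0 were at least 1.5-fold higher, against 1.27% of all 12032 measured genes, and 0 at least 1.5-fold lower, against 1.46%. Either way, 2.73% of all measured genes were 1.5-fold different. Among the 30 members above the floor on both arrays the largest difference was 1.37-fold. Timp4, Adamts8 and Mmp19 passed it on 1 array alone, so that their ratios are lower bounds and their signs follow from which array passed. At 1.2-fold, a size chosen after the values were seen, 2 members were higher, against 8.03% of all measured genes, and 4 lower, against 10.6%. Together these were 18.2% of the members, against 18.6% of all measured genes, so that this count was near the background. Of the 30 members above the floor on both arrays, 22 had a ratio below 0, or 73.3%, against 52.6% of the 11391 genes above it on both. The median log2 ratio (TAZ-deficient over wild type throughout) was -0.08 for the members and -0.01 for all measured genes. Of the 14 members above 106.3 on both arrays, where probe sets of one gene varied less, Adam9 and Adam19 were at least 1.2-fold lower and Adamts1 at least 1.2-fold higher, beside 3.98% and 3.12% of the 6732 genes that bright.

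**Figure D2:**
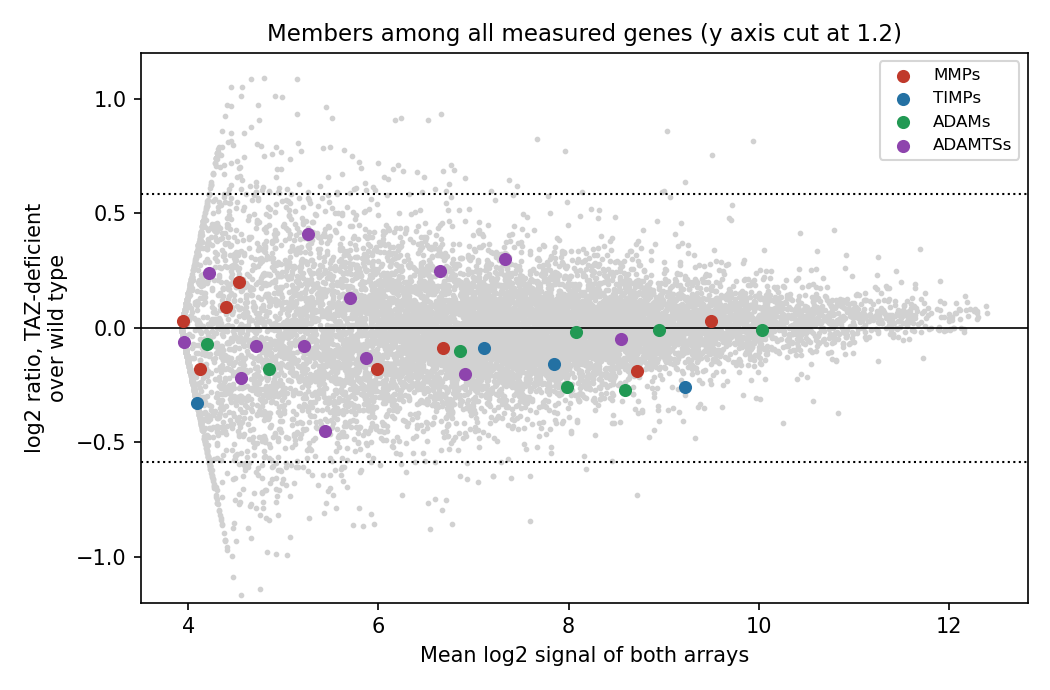
Log2 ratio (TAZ-deficient over wild type) against the mean log2 signal of both arrays, for all measured genes (grey) and the measured members (coloured by family). Dotted lines mark 1.5-fold, the vertical axis leaves out 12 genes beyond 1.2, and the 33 members lie between -0.45 (Adamts18) and 0.41 (Adamts3).

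Of the inhibitors, Timp2 differed the same way at each of its probe sets above the floor. Timp2, which inhibits MMPs and also takes part in the activation of Mmp2, read 547.0 in TAZ-deficient and 654.3 in wild type lung, a log2 ratio of -0.26 or just under 1.2-fold lower. Its next probe sets read 413.4 against 466.7, 310.1 against 377.2, 175.9 against 204.0 and 127.5 against 154.1, TAZ-deficient before wild type each time. The 5 probe sets of Timp2 above the floor were thus lower in the TAZ-deficient pool without exception, with log2 ratios from -0.28 to -0.17, and the sixth was below the floor on both arrays. Of 318 genes on the array with 5 or more probe sets passing the floor, 2 had every one of them at least 1.1-fold lower, or 0.629%, and these were Timp2 and Plxnc1. The size of 1.1-fold was chosen after the values were seen, and the cutoff of 5 equals the number of Timp2 probe sets above the floor. The share of 0.629% is therefore no measure of how rare Timp2 is. With 3 or more probe sets the share was 3.12% of 2279 genes. Probe sets of one gene measure the same pooled RNA, so that their accord says nothing of variation between embryos.

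Timp3, the inhibitor that stays bound to the matrix and also blocks Adam17 and several ADAMTSs, read 217.0 in TAZ-deficient and 242.4 in wild type lung, a log2 ratio of -0.16. Its other probe sets read 173.2 against 185.8, 110.4 against 119.6 and 95.8 against 90.6, again TAZ-deficient first, so that the dimmest of the 4 was higher in the TAZ-deficient pool. Timp1, an inducible secreted inhibitor, read 133.7 in TAZ-deficient and 142.6 in wild type lung, a log2 ratio of -0.09. These differences were within or near the SD of 0.12 between bright probe sets of one gene. Timp4 read 11 in TAZ-deficient and 19.1 in wild type lung, at least 1.26-fold lower, with its other probe set at 10.5 and 15.6. The TAZ-deficient signal of Timp4 lay below the floor, so that this ratio depends on where the floor is set. Of the TIMPs above the floor on both arrays, 3 of 3 had a ratio below 0 by the probe set used, with a median of -0.16, beside 52.6% of all genes above it on both.

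Mmp14, the membrane-type protease that cleaves fibrillar collagen and activates the precursor of Mmp2 in a complex with Timp2, was also lower by each of its probe sets. It read 393.3 in TAZ-deficient and 449.6 in wild type lung, 1.14-fold lower. Its other probe sets read 232.9 against 270.7 and 58.7 against 65.1, TAZ-deficient first, and the 3 log2 ratios ran from -0.22 to -0.15. Mmp2 itself, a gelatinase that cleaves denatured and basement membrane collagen, read 730.7 in TAZ-deficient and 716.6 in wild type lung by one probe set and 638.8 and 638.1 by the other. The RNA signal of Mmp2 was thus close to wild type while those of Timp2 and Mmp14 were slightly below it, Mmp2 having one probe set just below 0 under quantile normalization and loess. Among 2279 genes with 3 or more probe sets passing the floor, 71 had all of them at least 1.1-fold lower, or 3.12%, and of the 7 members with that many probe sets these were Timp2 and Mmp14. Because the size of 1.1-fold was chosen after the values were seen, this share is no measure of how rare Mmp14 is either.

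Measured markers of muscle were lower on the TAZ-deficient array beside these differences, but not they alone. All 5 smooth muscle markers above the floor, of 6 on the list, had negative log2 ratios with a median of -0.36. Acta2, the brightest of them, was close to wild type, with 2701.5 in TAZ-deficient and 2749.2 in wild type lung (-0.03). The summed signal of the list was 3420.5 in TAZ-deficient and 3698.0 in wild type lung. The 6 macrophage markers were also below 0, with a median of -0.26, beside 52.9% of all measured genes. The 4 measured heart muscle markers were likewise below wild type, with a summed signal over the list of 6 of 532.9 in TAZ-deficient and 705.5 in wild type lung. For the 6 fibroblast markers the sum was 5950.0 in TAZ-deficient and 5893.0 in wild type lung. The part of muscle cells in the signals of Timp2 and Mmp14 was not tested.

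**Figure D3:**
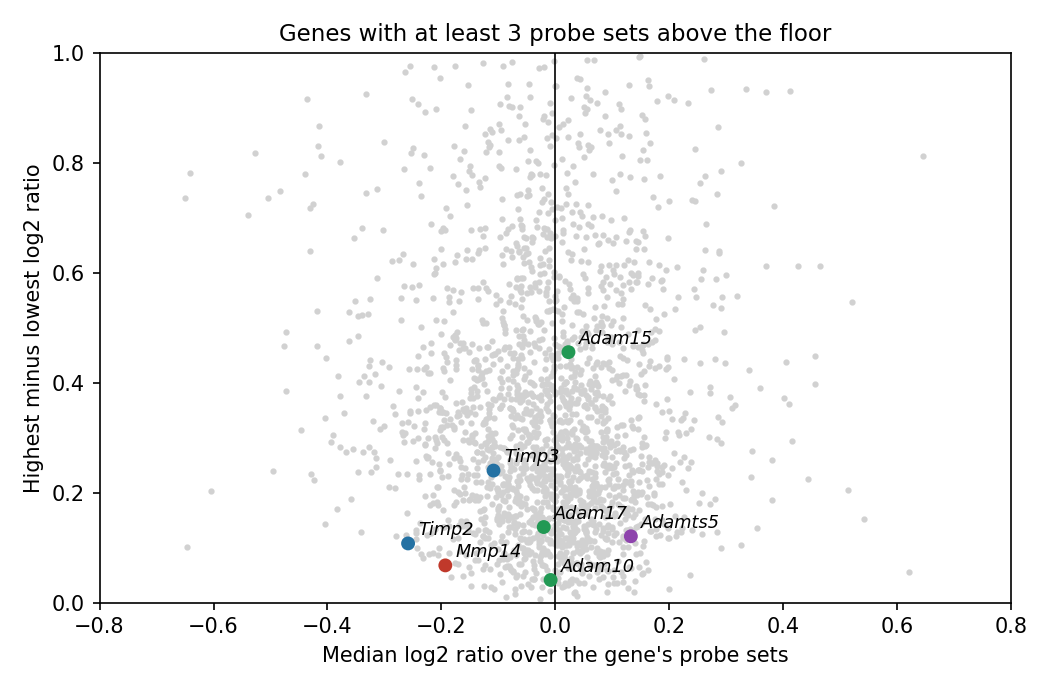
For each gene with 3 or more probe sets passing the floor, the median log2 ratio, TAZ-deficient over wild type (horizontal) and the distance between its highest and lowest log2 ratio (vertical), with all such genes in grey and the 7 members named. The axes leave out 67 genes, and Timp2 and Mmp14 lie left of 0 with ranges near 0.1, while the ratios of Adam15 are spread over 0.46.

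The other measured MMPs differed little and in both directions. Mmp23, a membrane-anchored member, read 59.7 in TAZ-deficient and 67.5 in wild type lung, and its second probe set 51.3 and 58.6, with log2 ratios of -0.18 and -0.19. Mmp11, stromelysin 3, known from stroma of remodelling tissue, read 99.6 in TAZ-deficient and 106.2 in wild type lung. The membrane-type genes Mmp17 (24.8 in TAZ-deficient, 21.6 in wild type) and Mmp16 (21.7 in TAZ-deficient, 20.4 in wild type) were slightly above wild type near the floor. Mmp19 crossed the floor on the TAZ-deficient array alone, where it was just over 15.2, and read 11.8 in wild type. Of the 8 measured MMPs, 4 had a ratio below 0, with Mmp19 counted by its bound, beside 52.9% of all measured genes. The median of the MMPs was -0.03.

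Among the ADAMs that shed membrane proteins, Adam10 and Adam17 were close to the wild type signal. Adam10, the protease that releases Notch receptors and cadherins, read 1048.1 in TAZ-deficient and 1053.2 in wild type lung. Its next probe sets read 566.4 against 569.6 and 232.8 against 240.7, TAZ-deficient first. Adam17, the TNF-converting enzyme that also releases ligands of the EGF receptor, read 268.8 in TAZ-deficient and 272.6 in wild type lung, and its other probe sets lay on either side of 0 (169.0 and 177.8, 135.5 and 129.6). Both genes were within 1.1-fold of wild type at each probe set above the floor.

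Adam9 and Adam19 stood lower than those. Adam9, a broadly expressed sheddase, read 352.3 in TAZ-deficient and 423.9 in wild type lung, a log2 ratio of -0.27 by its only probe set. Adam19, or meltrin beta, which is required for heart valve development in the mouse, read 230.9 in TAZ-deficient and 277.1 in wild type lung, a log2 ratio of -0.26, but its second probe set read 79.0 and 84.6, a log2 ratio of -0.10. Adam12, or meltrin alpha, a mesenchymal member, read 495.1 in TAZ-deficient and 497.6 in wild type lung, with 255.3 and 287.9 at its other probe set. Adam15 read 112.5 in TAZ-deficient and 120.2 in wild type lung by a probe set whose suffix marks possible cross-hybridisation, while the dimmer ones gave log2 ratios of -0.01, 0.06 and 0.36. The direction of Adam15 therefore depended on the probe set.

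Adam11 and Adam22, which lack protease activity and act in adhesion and at synapses, were near the floor. Adam11 read 27.0 in TAZ-deficient and 30.6 in wild type lung, and Adam22 17.9 and 18.8. Of 5 neuronal markers on the array 2 were above the floor, with a summed signal over the 5 of 103.4 in TAZ-deficient and 117.0 in wild type lung. Ratios were below 0 in 8 of 8 measured ADAMs on the deposited scale, beside 52.9% of all measured genes. After median centring it was 6 of 8, beside 50% of all measured genes, with Adam10 and Adam12 at 0.01. The median of the ADAMs was -0.08, and on the deposited scale Adam10, Adam12 and Adam17 were at -0.01, -0.01 and -0.02.

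**Figure D4:**
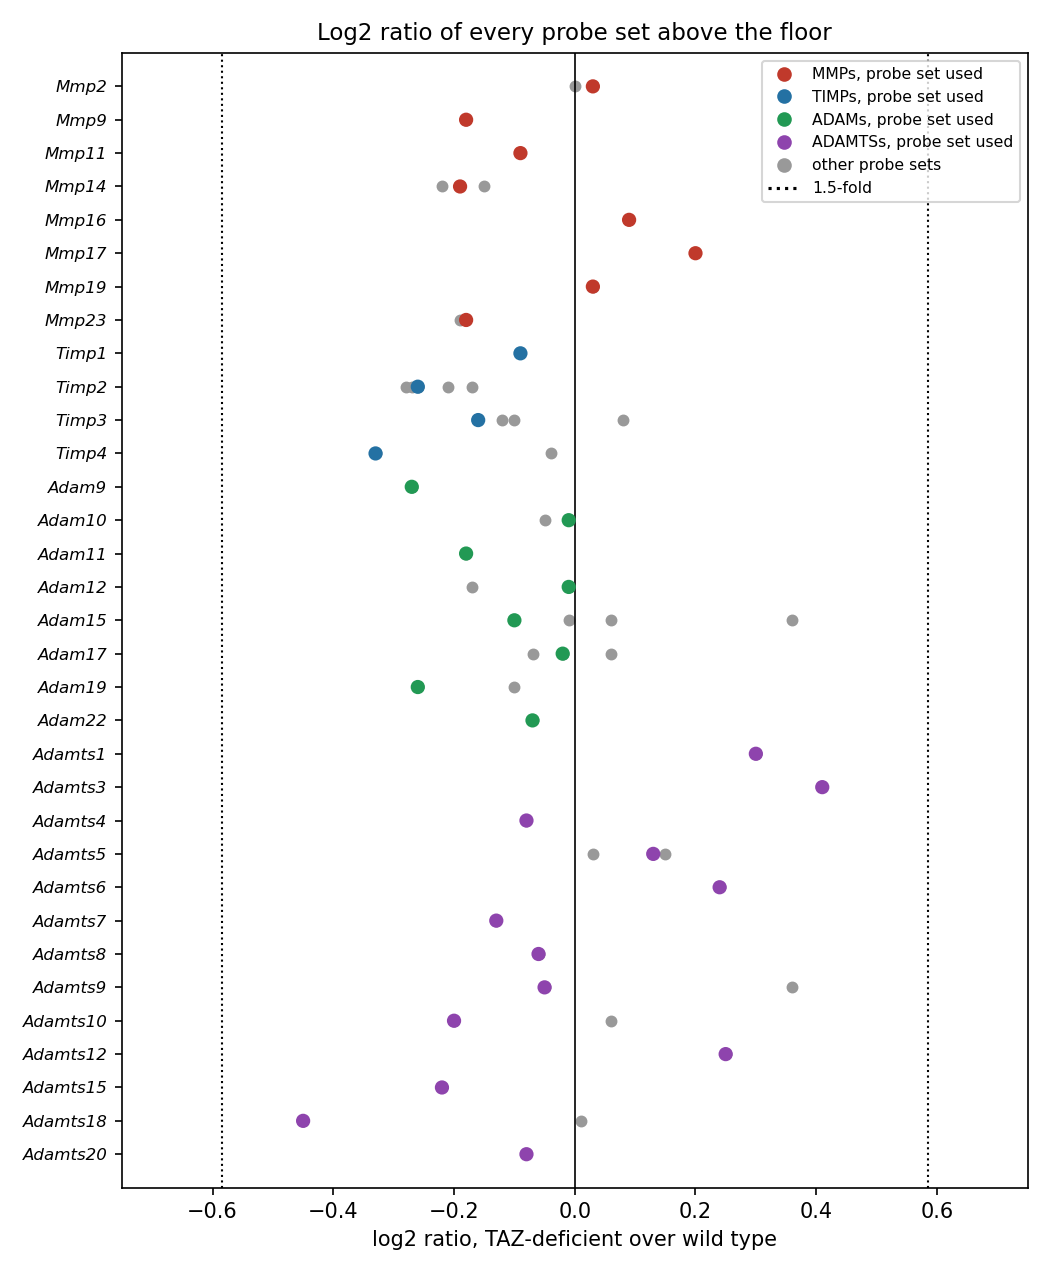
Log2 ratio (TAZ-deficient over wild type) at every probe set above the floor, with the probe set used for each gene in colour and the others in grey. No probe set of a member passes the dotted lines at 1.5-fold. Timp2 and Mmp14 have their points on one side of 0, as do other genes such as Adam10, Mmp23 and Adamts5. Adam15, Adam17, Adamts9, Adamts10, Adamts18 and Timp3 have points on both.

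The ADAMTSs had the widest spread of ratios among the 4 families, from -0.45 to 0.41. Of the 7 that cleave versican, aggrecan and related proteoglycans, 7 were measured. Adamts1 read 178.4 in TAZ-deficient and 144.7 in wild type lung, 1.23-fold higher by its only probe set. Adamts9, a widely expressed versicanase, read 369.4 in TAZ-deficient and 381.3 in wild type lung by the probe set used, but 34.7 and 27.1 by a dimmer one, a log2 ratio of 0.36. Adamts5, the main aggrecanase of mouse cartilage, was above wild type at 3 of 3 probe sets, with 54.6 against 49.8, 35.7 against 35.0 and 17.3 against 15.6, TAZ-deficient first. Adamts1 and Adamts5 were thus above wild type by each probe set that passed the floor, while the direction of Adamts9 depended on the probe set. The Adamts5 log2 ratios of 0.13, 0.03 and 0.15 were all below the SD of 0.24 between dim probe sets of one gene.

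The remaining 5 of that group were Adamts20 (36.2 in TAZ-deficient, 38.3 in wild type), Adamts4 (25.5 and 27.0 in that order), Adamts15 (21.8 and 25.4) and Adamts8 (10.9 and 15.8, the TAZ-deficient signal being below the floor), besides Adamts9. Their ratios by the probe sets used lay between -0.22 and -0.05.

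Adamts3, a procollagen N-proteinase that also takes part in activation of the lymphatic growth factor VEGF-C, had the highest ratio of the members above the floor on both arrays. It read 44.3 in TAZ-deficient and 33.3 in wild type lung, 1.33-fold higher by the only probe set above the floor of 2. Adamts12 (109.7 in TAZ-deficient, 92.0 in wild type) and Adamts6 (20.2 in TAZ-deficient, 17.1 in wild type) were 1.19-fold and 1.18-fold higher. Adamts7, which like Adamts12 cleaves cartilage oligomeric matrix protein, read 55.8 in TAZ-deficient and 61.1 in wild type lung. This pair of related proteases thus stood on opposite sides of wild type, each by a difference below the SD of 0.24 between dim probe sets or close to it.

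Adamts18 had the lowest ratio of the members above the floor on both arrays, reading 37.1 in TAZ-deficient and 50.8 in wild type lung, 1.37-fold lower. Its second probe set above the floor read 15.3 and 13.4, so that the difference rested on 1 probe set. Adamts10, a protease of the fibrillin microfibril, read 112.3 in TAZ-deficient and 129.4 in wild type lung, with a dim second probe set at 19.8 and 19.0. Of the 13 measured ADAMTSs, 8 ratios were below 0, that of Adamts8 as a bound, beside 52.9% of all measured genes. The median of the ADAMTSs was -0.06.

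Partners of these proteases were taken from 7 lists of regulators, inhibitors and substrates with 82 genes, of which 79 were on the array and 58 were measured. Il6ra, the interleukin 6 receptor that Adam10 and Adam17 can shed, was the only one at least 1.5-fold different. It read 25.4 in TAZ-deficient and 9.9 in wild type lung, at least 1.67-fold higher, while its second probe set stayed below the floor. That is 1 of 58 at 1.5-fold, beside the 2.73% of all measured genes given above. The median log2 ratio of the 58 genes was -0.03, and 37 of them, or 63.8%, were below 0, against 52.9% of all measured genes.

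Among membrane regulators and convertases, 15 of 16 were measured and none reached 1.5-fold. Bsg, the MMP inducer EMMPRIN, read 2036.1 in TAZ-deficient and 1925.5 in wild type lung, and Cd44, a hyaluronan receptor that anchors MMPs, 560.2 and 607.9. Reck, a membrane inhibitor of Mmp14, Mmp2 and Mmp9, read 338.2 in TAZ-deficient and 317.4 in wild type lung by its only probe set. Its log2 ratio of 0.09 was below the SD of 0.12 between bright probe sets of one gene. Furin, which removes the inhibitory propeptide of Mmp14 and many ADAMs, read 171.5 and 171.6. Rhbdf2, or iRhom2, which carries Adam17 to the cell surface, was closest to the threshold, with 51.5 in TAZ-deficient and 34.8 in wild type lung (1.48-fold higher by its only probe set), whereas Rhbdf1, its paralogue, read 237.1 and 232.8.

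The secreted inhibitors other than TIMPs had 5 of 8 genes measured, 5 of them below 0 and 0 at 1.5-fold by the probe sets used. Spock2 passed the floor in wild type alone (12.1 in TAZ-deficient, 15.4 in wild type), which fixed its sign. Cst3 read 1212.4 in TAZ-deficient and 1282.7 in wild type lung, and A2m 75.2 and 76.9. Sfrp1, a Wnt antagonist, read 62.5 in TAZ-deficient and 75.2 in wild type lung, a log2 ratio of -0.27, but its probe sets disagreed. They ran from 28.6 in TAZ-deficient against 46.1 in wild type, 1.61-fold lower, to 68.9 against 60.9, 1.13-fold higher. In the plasminogen system, which activates several MMP precursors, 5 of 8 were measured, with Anxa2 at 2226.8 in TAZ-deficient and 2161.1 in wild type lung and S100a10 at 699.1 and 768.4. Of these 5 genes, 4 were below 0, beside 52.9% of all measured genes, with a median of -0.14. At 1.2-fold 2 were lower and 0 higher, beside 10.6% and 8.03% of all. The urokinase gene Plau was below the floor on both arrays. Of 3 measured astacin proteases and enhancers, Pcolce2, an enhancer of procollagen processing, was 1.46-fold lower (60.3 in TAZ-deficient, 88.2 in wild type), while Pcolce read 741.3 and 756.2 and the procollagen C-proteinase Bmp1 261.8 and 283.8. Of the ADAMTS-like proteins, which lack the protease domain, 6 of 7 were measured and 0 reached 1.5-fold, with Adamtsl2 at 51.7 in TAZ-deficient and 63.3 in wild type lung and Thsd4 at 44.1 and 39.6.

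Of 16 matrix substrates 12 were measured and 0 reached 1.5-fold, with a median log2 ratio of -0.01. At 1.2-fold 3 were lower and 0 higher, beside 10.6% and 8.03% of all measured genes. Besides Hspg2 these were elastin (Eln), with 485.9 in TAZ-deficient and 619.3 in wild type lung, and the matricellular gene Thbs2, with 87.4 and 119.8. The other Eln probe set was lower too, with 204.2 in TAZ-deficient and 243.6 in wild type lung, whereas those of Thbs2 were higher, with 82.0 against 58.1 and 73.2 against 71.0, TAZ-deficient first. Versican (Vcan), the proteoglycan cut by Adamts1, Adamts5 and Adamts9, read 309.6 in TAZ-deficient and 282.9 in wild type lung. Col3a1, a fibrillar collagen, read 3524.0 in TAZ-deficient and 3422.8 in wild type lung, and Col4a1, of the basement membrane, 1734.6 and 1693.1. The basement membrane proteoglycan gene Hspg2 read 84.2 in TAZ-deficient and 121.8 in wild type lung, 1.45-fold lower, but its other probe set read 29.8 and 30.9. Aggrecan (Acan) was below the floor on both arrays.

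Of 17 shed ligands and receptors on the array 12 were measured. Cdh1, E-cadherin, which Adam10 cleaves, read 1002.9 in TAZ-deficient and 936.3 in wild type lung, and Tnfrsf1a, a TNF receptor that Adam17 sheds, 487.4 and 498.5. Of the Adam10 substrates in Notch signalling, Notch2 read 227.6 in TAZ-deficient and 239.9 in wild type lung, Notch1 153.9 and 157.9 and the ligand Jag1 130.9 and 150.5. Enzyme and receptors alike therefore lay within 1.1-fold of wild type, and Jag1 within 1.2-fold.

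**Figure D5:**
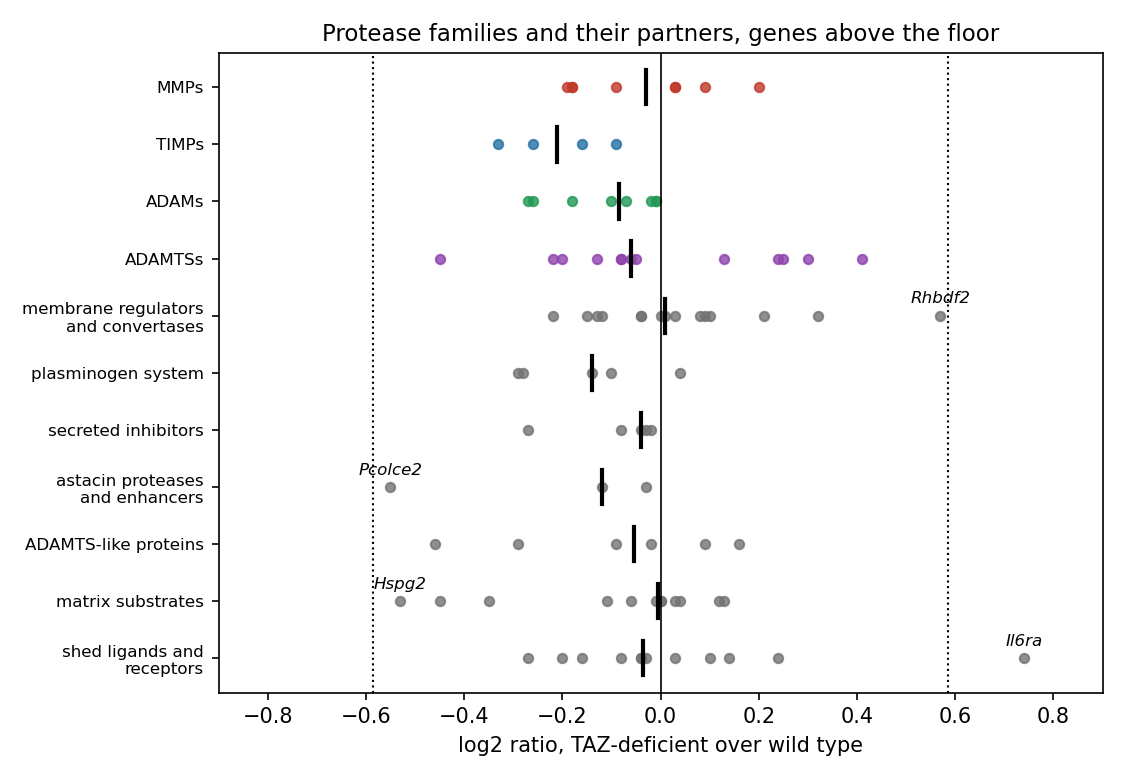
Log2 ratio (TAZ-deficient over wild type) for the measured genes of the 4 protease and inhibitor families (coloured) and of the 7 lists of partners (grey), 1 point per gene, with a black bar at each median and dotted lines at 1.5-fold. The 4 TIMP points, 1 of them the lower bound of Timp4, lie left of 0, the ADAMTSs spread furthest among the families, and Il6ra is the only point beyond 1.5-fold.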

How the data were processed

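Total RNA from 2 pools of whole lung at E15.5 was primed with oligo(dT) and labelled as biotin cRNA, per the labels' protocols. The authors deposited 1 linear intensity per array for each probe set, and the submitters' processing notes name GCOS and MAS5, without a version. The scaling to a common trimmed mean (lowest and highest 2% removed) was read from the values. No detection call was used.

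The table had 45101 probe sets, 64 of them controls, and 34945 of the others named 1 gene. In all, 5 probe sets naming a member beside another gene were left out. A gene was represented by its probe set with the highest mean log2 signal, signals below 15.2 (the median of non-control values) were set to it, and log2 ratios of TAZ-deficient over wild type were taken with pandas 2.3.3 and numpy 2.4.6. Alternatives were floors at the 25th and 75th percentile (4.3 and 106.3), median centring, quantile normalization, loess (span 0.3, statsmodels 0.14.6), the median over probe sets, leaving out shared probe sets, updated symbols and a floor passed on both arrays. Any measured member could be named. Of the partner lists, genes at 1.5-fold were named and otherwise the brightest 2, and Plxnc1, Reck, Furin, Rhbdf1, Rhbdf2, Plau, Pcolce2, Sfrp1, Spock2, Vcan, Eln, Thbs2, Hspg2, Acan, Cdh1, Tnfrsf1a, Notch1, Notch2 and Jag1 were added after their values were seen. Counting was tested on simulated data. The members and lists were chosen with earlier results of these data known.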

Additional observations from a re-analysis of the deposited data

How the results depend on the processing

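No paired analysis was possible because each group is 1 array. Under 9 alternatives no member was 1.5-fold different, except with the floor at the 25th percentile (4.3), where 2 members were higher and 4 lower among 53 measured, namely Adam1a, Adam1b, Adam28, Adam34, Adam6b and Timp4, beside 12.3% of all genes at that floor, the set measured being larger by construction. With the highest floor (75th percentile) 12 of the 15 members then measured were below 0, beside 51.1% of all genes at that floor. With the lowest floor it was 35 of 53, beside 53.2%. In the main setting the count below 0 was 24 of 33, beside 52.9% of all measured genes. Over the other alternatives it was 22 to 24, beside 50% to 54.4% of all. The count with the floor passed on both arrays was 22 of 30. The median over all members ran from -0.09 to -0.06, that of TIMPs from -0.21 to -0.15, of ADAMs from -0.08 to -0.05 and of ADAMTSs from -0.08 to 0.00, and that of MMPs from -0.09 to 0.03, above 0 with the lowest floor. Of 276 single-gene values under the alternatives, 5 were counted as moved by more than the SD between probe sets, 0.20 when rounded. With the lowest floor these were Timp4 (-0.80), Adamts8 (-0.54) and Mmp19 (0.39), which have a signal below the main floor. The others were Adamts12 (0.05) with the highest floor and Adamts18 (-0.22) with the median over probe sets. Timp2 stayed between -0.27 and -0.25 and Mmp14 between -0.19 and -0.18. Adam15 went from -0.10 to 0.06 without shared probe sets, and Adamts9 from -0.05 to 0.16 with the median over probe sets. Both changed sign without being counted as moved, Adamts9 lying at the edge of that limit. The median over all measured genes lay between -0.019 and 0.000 under every alternative. Signals near the floor limit what can be said of the dim members, and 1 array per group limits every ratio.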
